A study of Mus musculus with 6 samples.

Results

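The genes described here are 35 genes for the ion channels and the calcium-handling machinery of the heart. They were chosen by gene name from a table that lists 54532 genes, the choice uses no threshold on the values, and each of the 35 was found there once. They fall by role into uptake of calcium into the sarcoplasmic reticulum (SR, the internal calcium store), storage and release from it, calcium entry and exit across the cell membrane, a sodium channel subunit, voltage-gated and inwardly rectifying potassium channels, the ATP-sensitive potassium (KATP) channel, pacemaker channels and connexins. Bulk RNA sequencing was performed on the infarct and its border from the hearts of 3 WT and 3 *Crlf2*-/- mice, each mouse giving 1 library. All 6 mice were of the C57BL/6 strain by the labels (C57BL/6J in the study's methods) and had undergone myocardial infarction (MI) by ligation of the left anterior descending coronary artery, and tissue was taken on day 7. *Crlf2* encodes TSLPR, the receptor chain for the cytokine TSLP, and the knockout is not stated to be limited to any cell type. The study's methods describe purchased male C57BL/6J mice of a stated age range, and knockout mice generated on a C57BL/6J background. They do not give the sex and age of the knockout mice separately. Whether the sequenced WT mice were littermates of the knockout mice or purchased animals was not stated. A difference in source could therefore not be told apart from genotype. No sham-operated heart was among the 6 libraries, so the values compare 2 genotypes after infarction and do not show what infarction itself did.

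In each heartbeat the L-type calcium channel lets in a small calcium current, which opens the ryanodine receptor of the SR and releases the stored calcium that drives contraction. The SERCA2 pump, held back by phospholamban, and the sodium-calcium exchanger then clear it. Potassium currents end the action potential, pacemaker channels carry the depolarising current of automatic cells, and connexins form the gap junctions through which the impulse passes from cell to cell. Repolarising potassium channel genes and SR genes are known to be expressed at lower levels in failing myocardium.

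The libraries held 18508646 to 19682428 fragments on the genes of the table. *Crlf2* stood at 26.7, 24.8 and 21.7 FPKM in the WT libraries and at 13.3, 18.6 and 19.9 FPKM in the *Crlf2*-/- libraries, so transcripts assigned to the targeted gene were present in all 3 knockout mice, with every value below those of WT (log2 fold change -0.51, adjusted p = 0.528, limma). FPKM divides the fragments of a gene by its length and by the size of the library, and it was here also scaled between libraries. The library *Crlf2*-/- replicate 2 stood apart by genes of skeletal muscle. *Myh1*, a fast myosin of skeletal muscle, had 3781 fragments there and at most 5 in any other library, and *Atp2a1*, the SR calcium pump of fast skeletal muscle, had 2893 there and at most 8 elsewhere. The log2 fold changes of *Atp2a2*, *Casq2*, *Hrc*, *Jph2*, *Trdn* and *Scn4b* are therefore given with and without this library. The 16 cardiomyocyte markers (*Myh6*, *Tnni3*, *Myl2* and others) were at detectable levels in every library, with a summed level of 1540, 2720 and 2480 FPKM in WT and 999, 1020 and 1940 FPKM in *Crlf2*-/- hearts. Of the 6 atrial markers, *Myl7* and *Bmp10* had at most 7 and 2 fragments in any library. *Myl4* had 754 fragments in *Crlf2*-/- replicate 2 and 46 to 71 elsewhere, *Nppa*, which ventricles also express under stress, was at 141 to 416 FPKM, *Dkk3* at 44.9 to 69.3 FPKM and *Stard10* at 3.07 to 5.17 FPKM.

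Of the 35 genes, 34 had enough fragments to be tested and *Sln* did not. None of the 34 passed both thresholds, an adjusted p no higher than 0.05 and a log2 fold change of 0.5 or more in either direction, which 0.0129% of the 15520 genes tested passed (limma on log2(FPKM + 0.1), Benjamini-Hochberg adjustment). Their adjusted p ranged from 0.374 to 0.997. At an unadjusted p under 0.05, 6 of the 34 (17.6%) were lower in *Crlf2*-/- hearts, against 3.25% of all genes tested, and 0 were higher, against 3.3%. These 6 were *Pln*, *S100a1*, *Kcna5*, *Kcne1*, *Kcnip2* and *Kcnq1*. Of any size, 23 of 34 differences (67.6%) were toward lower levels, where 50.2% of all genes lay that way. The median log2 fold change of the 34 genes was -0.09, within a range from -1.25 for *Kcnip2* to 0.56 for *Kcnd3*, beside a median of 0.00 over all genes. All *Crlf2*-/- values were below all WT values for 3 of the 34 genes (8.82%), against 6.17% of all genes, and above all WT values for 2 (5.88%), against 5.56%. The shares of genes without overlap were thus near those of all genes.

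**Figure D1:**
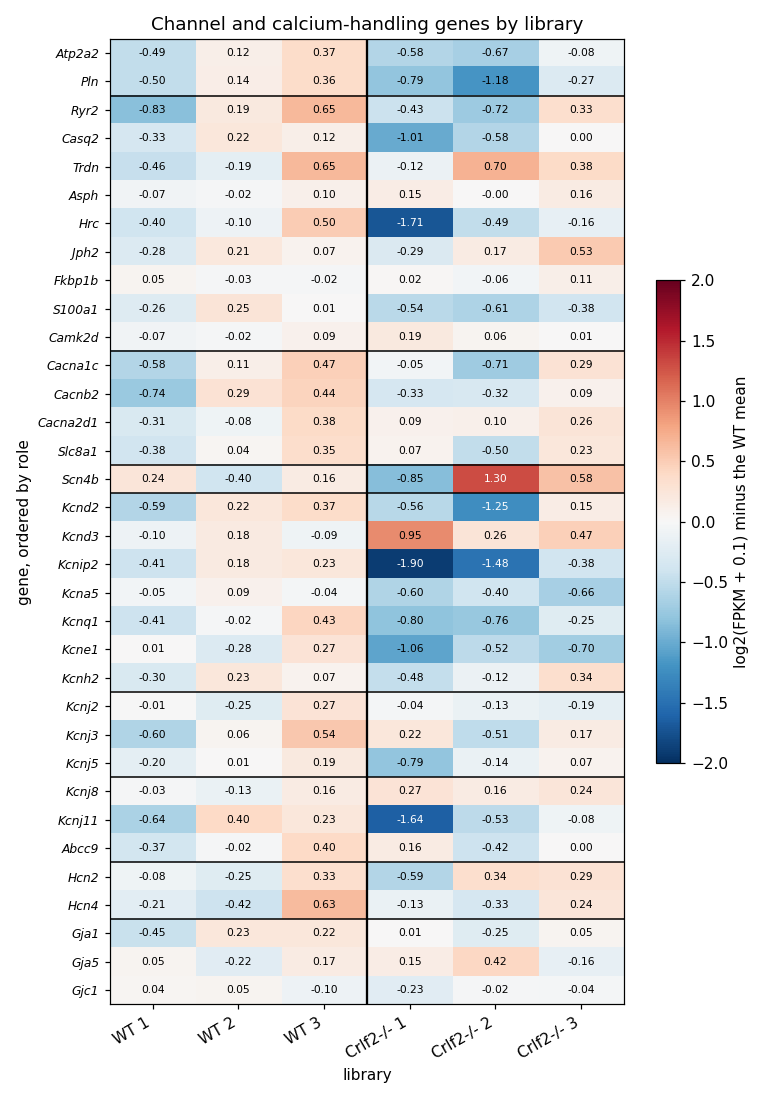
Heat map of the 34 tested genes (rows, ordered by role, lines between roles) in the 6 libraries (columns). Colour and number give log2(FPKM + 0.1) minus the mean of the 3 WT libraries. WT replicate 1 is blue in most rows, *Crlf2*-/- replicate 3 is close to WT, and the 6 genes with an unadjusted p under 0.05 are blue in all 3 *Crlf2*-/- libraries.

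The spread within each genotype was a large part of the picture. WT replicate 1 had the lowest value of its group for 25 of the 34 genes, and WT replicate 3 had the highest of all 6 libraries for 17. *Crlf2*-/- replicate 3 had the highest value of its group for 21 genes. The median position of the 34 genes on the log2 scale, relative to the WT mean of each, was -0.30, 0.04 and 0.25 in the WT libraries and -0.31, -0.33 and 0.08 in the *Crlf2*-/- libraries, and the groups overlapped. The mean position of the cardiomyocyte markers was -0.43, 0.24 and 0.20 in WT and -1.57, -0.98 and -0.13 in *Crlf2*-/- libraries. WT replicate 1 and *Crlf2*-/- replicate 3, which stood out among their groups in the channel and calcium genes, thus stood out in the same direction in these markers. All 16 markers had a lower mean of log values in *Crlf2*-/- hearts and 8 had an unadjusted p under 0.05, with 0 passing the adjusted threshold (limma, median log2 fold change -0.89). For *Ckm*, a creatine kinase that skeletal muscle also expresses, the mean of the FPKM values went the other way (9.08 in WT and 12.1 in *Crlf2*-/-), with its highest value, 28.2 FPKM, in *Crlf2*-/- replicate 2. In bulk tissue, fewer cardiomyocytes in the sample and less RNA per cardiomyocyte cannot be told apart.

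Markers of other cell types differed between the genotypes too, and their part in the results was not tested. The 5 T cell markers and the 5 red blood cell markers were each lower in *Crlf2*-/- hearts, all with an unadjusted p under 0.05 and without overlap (median log2 fold changes -1.33 and -1.29, limma). Over all genes tested, 3.25% were lower at that p and 6.17% were lower without overlap. None of these markers passed the adjusted threshold (adjusted p 0.151 to 0.305 for T cell and 0.0709 to 0.255 for red blood cell markers, limma). Markers of fibroblasts, endothelium, macrophages and neutrophils had medians of -0.04, -0.12, 0.12 and 0.23. Those of atrium, sinus node and conduction system, nerve, and pericytes and smooth muscle had medians of 0.13, 0.19, -0.20 and 0.00. The last of these lists moved both ways, with 5 of 9 genes lower and 4 higher.

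**Figure D2:**
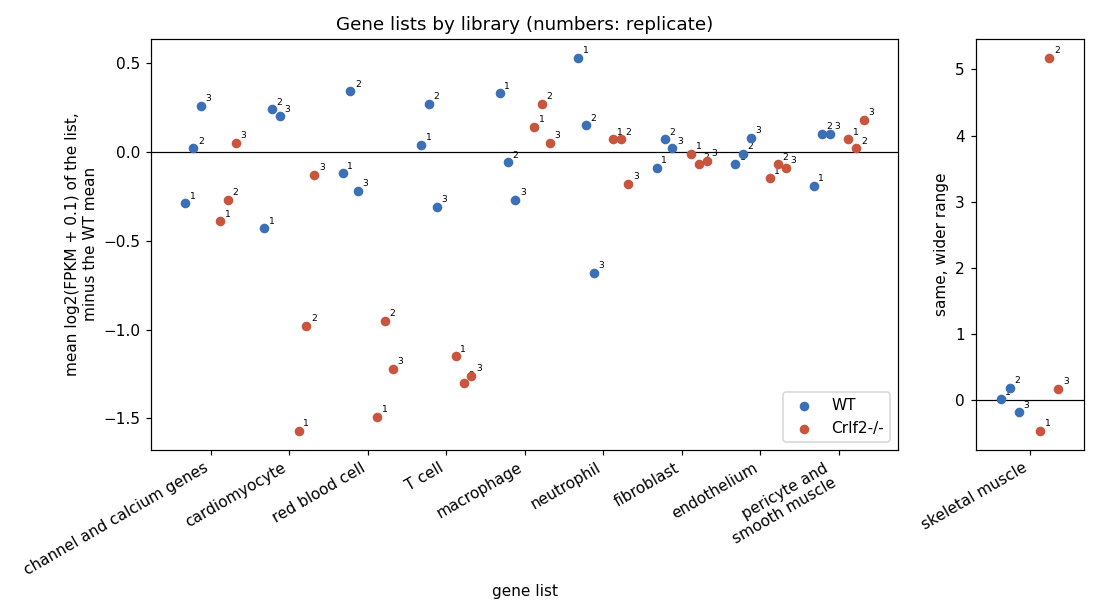
Mean log2(FPKM + 0.1) of each gene list minus its WT mean (vertical axis, a wider range for skeletal muscle at the right), with 1 point per library, blue for WT and red for *Crlf2*-/-, numbered by replicate. The channel and calcium genes overlap between genotypes, the cardiomyocyte markers lie at -1.57 and -0.98 in *Crlf2*-/- replicates 1 and 2, and the skeletal muscle genes are high in *Crlf2*-/- replicate 2 alone.

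**Figure D3:**
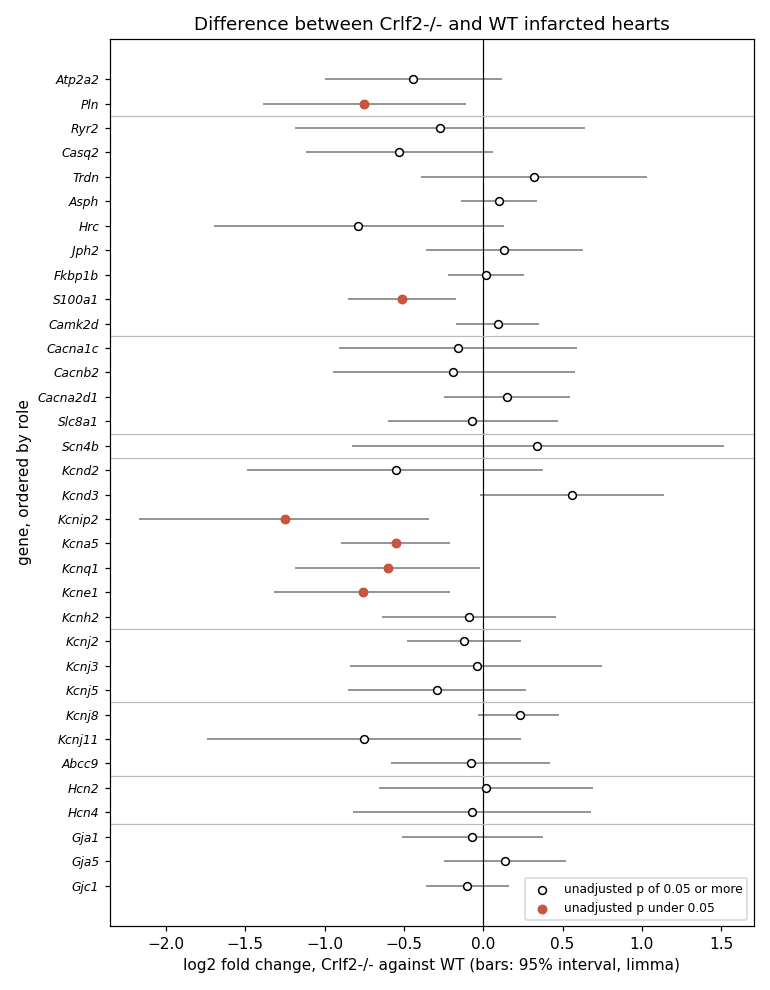
Log2 fold change of each of the 34 tested genes, *Crlf2*-/- against WT (horizontal axis), with the 95% interval from limma as bars and genes ordered by role. Filled points mark the 6 genes with an unadjusted p under 0.05, all below 0, and the widest intervals are those of *Scn4b* and *Kcnj11*.

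The mean levels in WT hearts, which FPKM gives per gene length, ran from 0.0838 FPKM for *Scn4b* to 117 FPKM for *Atp2a2*, with *Sln* at 0. In these hearts 7 genes had a mean of at least 10 FPKM, 18 lay between 1 and 10, and 10 lay under 1. The highest were *Atp2a2* with 117 ± 33.5 FPKM (SD, n = 3) and *S100a1* with 99.5 ± 17.2 FPKM (SD, n = 3), which did not differ beyond their spread. *Pln* at 39.7 ± 11.4 and *Casq2* at 38.8 ± 7.47 FPKM (SD, n = 3) came next and also lay within each other's spread, followed by *Jph2* at 21.3, *Slc8a1* at 17.1 and *Gja1* at 14.8 FPKM. In *Crlf2*-/- hearts *Atp2a2* (85.1 FPKM) and *S100a1* (69.3 FPKM) kept the first places, and *Pln* (23.7 FPKM) stood behind both *Casq2* (27.7 FPKM) and *Jph2* (23.8 FPKM). The means of *Pln*, *Casq2* and *Jph2* were closer together than their SDs of 7.6, 9.85 and 6.6 FPKM.

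Promoter sequence is shown for 4 of the 6 genes with an unadjusted p under 0.05, so that the regions before genes that lay in the same direction can be read side by side. The sequences are the 250 bases before the transcription start in RefSeq (GRCm38.p6), written 5′ to 3′ along the gene, and capitals mark matches to a motif.
Pln upstream, chr10:53337436-53337685, strand +: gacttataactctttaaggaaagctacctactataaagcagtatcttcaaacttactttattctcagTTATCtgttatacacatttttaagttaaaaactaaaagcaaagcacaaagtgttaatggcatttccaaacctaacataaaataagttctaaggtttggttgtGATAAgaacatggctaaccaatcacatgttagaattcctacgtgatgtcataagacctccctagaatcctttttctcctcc
S100a1 upstream, chr3:90514331-90514580, strand -: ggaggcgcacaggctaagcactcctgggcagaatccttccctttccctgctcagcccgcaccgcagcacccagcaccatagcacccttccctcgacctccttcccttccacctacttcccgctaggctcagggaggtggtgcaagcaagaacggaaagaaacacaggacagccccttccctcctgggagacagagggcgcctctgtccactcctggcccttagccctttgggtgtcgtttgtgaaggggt
Kcna5 upstream, chr6:126535556-126535805, strand -: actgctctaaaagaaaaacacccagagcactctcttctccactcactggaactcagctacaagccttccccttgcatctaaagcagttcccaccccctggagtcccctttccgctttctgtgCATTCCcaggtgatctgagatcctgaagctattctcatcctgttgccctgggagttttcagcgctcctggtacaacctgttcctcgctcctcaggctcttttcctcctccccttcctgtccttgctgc
Kcnip2 upstream, chr19:45816064-45816313, strand -: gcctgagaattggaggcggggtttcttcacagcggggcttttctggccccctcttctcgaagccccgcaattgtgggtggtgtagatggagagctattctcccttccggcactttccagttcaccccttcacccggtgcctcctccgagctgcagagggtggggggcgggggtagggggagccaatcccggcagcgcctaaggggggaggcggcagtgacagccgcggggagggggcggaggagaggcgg
Searched on both strands were the MEF2 and CArG motifs, by name, the letters GATAA (the core bound by GATA factors) and the letters CATTCC (the M-CAT element). *Pln* held 2 matches to GATAA, 1 on each strand, *Kcna5* held 1 match to CATTCC, and *S100a1* and *Kcnip2* held none of the 4. Of the 35 genes, 27 had a promoter in the table, with 31 promoters. Counted per gene, 5 held GATAA, 2 held CATTCC, 1 held MEF2 and 0 held CArG. Counted per promoter, which is another unit, 22.6% of all 32851 promoters held GATAA, 12.6% CATTCC, 2.92% MEF2 and 1.47% CArG. The GC content was 32.8% for *Pln*, 61.6% for *S100a1*, 53.2% for *Kcna5* and 66.8% for *Kcnip2*, where the mean of all promoters was 53.2%. These matches describe letters in a window and show no binding.

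Uptake of calcium into the SR rests on *Atp2a2* (SERCA2, the pump), *Pln* (phospholamban, its inhibitor) and *Sln* (sarcolipin, a related inhibitor found in atrium and skeletal muscle). *Pln* (ENSMUSG00000038583, plus strand of chromosome 10, from 53337667 to 53345987) was at 27.2, 42.3 and 49.5 FPKM in WT and at 22.2, 16.9 and 31.9 FPKM in *Crlf2*-/- hearts. The *Crlf2*-/- replicate 3 value lay above the lowest WT value, so the groups overlapped. The log2 fold change was -0.75 (standard error 0.28, 95% interval -1.39 to -0.11, adjusted p = 0.647, limma), and the unadjusted p of 0.0269 became 0.112 without WT replicate 3. It stayed under 0.05 in 2 of the 6 fits that left out 1 library. Exons of *Pln* overlap those of *Cep85l* on the opposite strand, which had 233 to 341 fragments per library against 1089 to 2980 for *Pln*, and without a stated strand in the counting the reads of overlapping exons cannot be told apart.

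*Atp2a2* (ENSMUSG00000029467, minus strand of chromosome 5, from 122453513 to 122502225) was at 80.9, 124 and 147 FPKM in WT and at 76.1, 71.4 and 108 FPKM in *Crlf2*-/- hearts. The pump thus had 2 of its 3 *Crlf2*-/- values below every WT value and the third between WT replicates 1 and 2. Its log2 fold change was -0.44 (standard error 0.24, 95% interval -1.0 to 0.12, adjusted p = 0.861, limma). It was -0.33 without *Crlf2*-/- replicate 2, and over the fits that left out 1 library it ran from -0.69 without WT replicate 1 (unadjusted p = 0.00912, limma) to -0.26 without WT replicate 3. *Sln* (ENSMUSG00000042045) had 0 fragments in each WT library and 0, 153 and 2 fragments in the *Crlf2*-/- libraries. Nearly all came from the library that held skeletal muscle genes, and without that library it was at or near 0 in both genotypes. The 0 of WT allows up to 3 fragments per library by counting error alone.

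Storage and release of calcium is served by 9 genes, of which 4 were lower and 5 higher in *Crlf2*-/- hearts, with a median log2 fold change of 0.02. *S100a1* (ENSMUSG00000044080, minus strand of chromosome 3, from 90511034 to 90514392), a calcium sensor that binds SERCA2 and the ryanodine receptor, was at 82.4, 117 and 99.2 FPKM in WT and at 67.5, 64.7 and 75.9 FPKM in *Crlf2*-/- hearts. The genotypes did not overlap, with each *Crlf2*-/- heart below the lowest WT heart. The log2 fold change was -0.51 (limma standard error 0.15, 95% interval -0.85 to -0.17, adjusted p = 0.457, limma), and the unadjusted p of 0.00886 stayed under 0.05 in all 6 fits without 1 library, at most 0.0406. It had 1032 to 1774 fragments per library.

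*Casq2*, the calcium-binding protein of the cardiac SR, was at 30.3, 44.5 and 41.6 FPKM in WT and at 19.0, 25.6 and 38.3 FPKM in *Crlf2*-/- hearts. *Hrc*, the histidine-rich calcium-binding protein of the SR lumen, was at 3.73, 4.63 and 7.06 FPKM in WT and at 1.45, 3.50 and 4.43 FPKM in *Crlf2*-/- hearts. Both had their lowest value in *Crlf2*-/- replicate 1 and a *Crlf2*-/- replicate 3 value inside the WT range, and neither passed (log2 fold changes -0.53 and -0.79, adjusted p = 0.814 and 0.825, limma). Without *Crlf2*-/- replicate 1 these were -0.29 and -0.33, without *Crlf2*-/- replicate 2 they were -0.50 and -0.93, and without *Crlf2*-/- replicate 3 they were -0.79 and -1.1. *Ryr2* (ENSMUSG00000021313, minus strand of chromosome 13, from 11553102 to 12106945), the ryanodine receptor itself, was at 1.60, 3.35 and 4.65 FPKM in WT and at 2.16, 1.74 and 3.71 FPKM in *Crlf2*-/- hearts. The WT libraries alone spanned the whole range of the gene, and its log2 fold change was -0.27 with a 95% interval from -1.19 to 0.64 (adjusted p = 0.995, limma). Without WT replicate 3 the value was 0.052, so its direction rested on that library.

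The junctional genes did not share the direction of *Casq2* and *Hrc*. *Trdn* (triadin, which anchors calsequestrin to the ryanodine receptor) was at 2.83, 3.43 and 6.20 FPKM in WT and at 3.61, 6.44 and 5.13 FPKM in *Crlf2*-/- hearts. The highest value was that of *Crlf2*-/- replicate 2, the library with skeletal muscle genes, and the log2 fold change of 0.32 (adjusted p = 0.967, limma) was 0.13 without it. *Jph2* (junctophilin, which holds the SR against the cell membrane) had a log2 fold change of 0.13 (0.12 without *Crlf2*-/- replicate 2), *Asph* (the locus of junctin) of 0.10, *Camk2d* (the main cardiac CaM kinase) of 0.09 and *Fkbp1b* (a ryanodine receptor stabiliser) of 0.02. For *Fkbp1b* the 95% interval ran from -0.22 to 0.26 and for *Camk2d* from -0.17 to 0.35, the narrowest among the release genes together with that of *Asph* (-0.14 to 0.34).

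Calcium crosses the cell membrane through the L-type channel (*Cacna1c*, the pore, with the subunits *Cacnb2* and *Cacna2d1*) and leaves through the exchanger *Slc8a1*. *Cacna1c* (ENSMUSG00000051331, minus strand of chromosome 6, from 118587240 to 119196418) was at 1.25, 2.06 and 2.69 FPKM in WT and at 1.84, 1.13 and 2.35 FPKM in *Crlf2*-/- hearts. The groups overlapped nearly fully, with a log2 fold change of -0.16 and a 95% interval from -0.91 to 0.59 (adjusted p = 0.995, limma). Without *Crlf2*-/- replicate 2 it was 0.12. *Cacnb2* had a log2 fold change of -0.19, *Cacna2d1* of 0.15 and *Slc8a1* of -0.07, with adjusted p of 0.987 to 0.996. *Slc8a1* ranged from 11.8 to 21.3 FPKM over the 6 libraries, and its lowest value was in *Crlf2*-/- replicate 2. It was also the 1 gene of the 35 whose start and end in the table differed from those in GENCODE M21.

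The sodium channel subunit *Scn4b* was barely detected. Its fragments numbered 13, 4 and 11 in WT and 0, 40 and 19 in *Crlf2*-/- libraries, so the lowest and the highest count both fell among the *Crlf2*-/- mice. The log2 fold change of 0.34 (95% interval -0.83 to 1.52, adjusted p = 0.995, limma) turned to -0.135 without the library that held skeletal muscle genes.

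Among the 7 voltage-gated potassium channel genes, 6 were lower in *Crlf2*-/- hearts, 4 of them with an unadjusted p under 0.05, while the seventh, *Kcnd3*, was higher in every *Crlf2*-/- library. Over all genes tested, 50.2% were lower at any size and 3.25% were lower at that p. Of the 16 cardiomyocyte markers, 16 were lower, 8 of them at that p (limma). *Kcna5* (ENSMUSG00000045534, minus strand of chromosome 6, from 126532551 to 126535412) encodes Kv1.5, which carries the ultrarapid delayed rectifier current. It was at 1.91, 2.11 and 1.92 FPKM in WT and at 1.27, 1.48 and 1.21 FPKM in *Crlf2*-/- hearts. The groups did not overlap, and the SDs of 0.109 and 0.141 FPKM were small beside the difference of the means (1.98 and 1.32 FPKM, n = 3 each). With a log2 fold change of -0.55 (standard error 0.15, 95% interval -0.90 to -0.21), its adjusted p of 0.374 was the smallest of the 34 genes (limma). The unadjusted p was 0.00573 and reached at most 0.0274 when 1 library was left out. Unlike most of the genes, *Kcna5* was as low in *Crlf2*-/- replicate 3 as in the other knockout libraries.

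*Kcne1* and *Kcnq1* encode the accessory and the pore subunit of the slow delayed rectifier. *Kcne1* (ENSMUSG00000039639, minus strand of chromosome 16, from 92345982 to 92359468) was at 0.703, 0.554 and 0.856 FPKM in WT and at 0.282, 0.453 and 0.388 FPKM in *Crlf2*-/- hearts, from 39 to 60 and from 20 to 34 fragments. No *Crlf2*-/- library reached a WT library. Its log2 fold change was -0.76 (standard error 0.24, 95% interval -1.32 to -0.21, adjusted p = 0.522, limma), and the unadjusted p of 0.0134 was at most 0.0479 without 1 library. *Kcnq1* (ENSMUSG00000009545, plus strand of chromosome 7, from 143106362 to 143427042) was at 1.32, 1.76 and 2.45 FPKM in WT and at 0.986, 1.01 and 1.49 FPKM in *Crlf2*-/- hearts. *Crlf2*-/- replicate 3 lay above WT replicate 1, and the genotypes differed by -0.60 on the log2 scale (standard error 0.25, adjusted p = 0.743, limma). Its unadjusted p of 0.0452 became 0.156 without WT replicate 3. The antisense transcript *Kcnq1ot1* overlaps exons of *Kcnq1* and its fragments numbered 55, 49 and 72 in the WT hearts against 83, 73 and 77 in the *Crlf2*-/- hearts, beside 89 to 219 per library for *Kcnq1*, and reads of the shared part cannot be assigned to either strand.

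*Kcnd2* (Kv4.2), *Kcnd3* (Kv4.3) and *Kcnip2* (KChIP2, their accessory subunit) form the channel of the fast transient outward current. *Kcnip2* (ENSMUSG00000025221, minus strand of chromosome 19, from 45791839 to 45816061) had 38, 58 and 60 fragments in WT and 8, 14 and 38 fragments in *Crlf2*-/- libraries, which is 0.475, 0.762 and 0.792 FPKM against 0.104, 0.172 and 0.487 FPKM. *Crlf2*-/- replicate 3 was level with WT replicate 1, and the other knockout libraries were far below. The log2 fold change of -1.25 (standard error 0.40, 95% interval -2.17 to -0.34, adjusted p = 0.522, limma) was the most negative of the 34 genes, an order that depends on the pseudocount: at a pseudocount of 1 it was -0.43, behind *Pln* (-0.73), *Hrc* (-0.61), *Casq2* (-0.51), *S100a1* (-0.50) and *Atp2a2* (-0.44), and at 0.01 it was -1.62. At the pseudocount of 0.1 it went from -0.93 without *Crlf2*-/- replicate 1 to -1.69 without *Crlf2*-/- replicate 3. Its unadjusted p of 0.0133 stayed at or under 0.0441 in these fits.

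*Kcnd3* (ENSMUSG00000040896, plus strand of chromosome 3, from 105452330 to 105674002) had 28, 37 and 27 fragments in WT and 78, 43 and 51 fragments in *Crlf2*-/- libraries, so that each *Crlf2*-/- library was above each WT library, the opposite direction to *Kcnip2*. The log2 fold change was 0.56 (standard error 0.25, 95% interval -0.02 to 1.14, unadjusted p = 0.0566, adjusted p = 0.785, limma). *Kcnd2* had 10, 25 and 29 fragments in WT and 10, 2 and 24 fragments in *Crlf2*-/- libraries (log2 fold change -0.55, adjusted p = 0.935, limma). At counts this low the fold changes of both genes are imprecise. *Kcnh2* (the ERG channel of the rapid delayed rectifier) lay between 1.23 and 2.25 FPKM in the 6 libraries, and both of these extremes were *Crlf2*-/- libraries (log2 fold change -0.09).

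**Figure D4:**
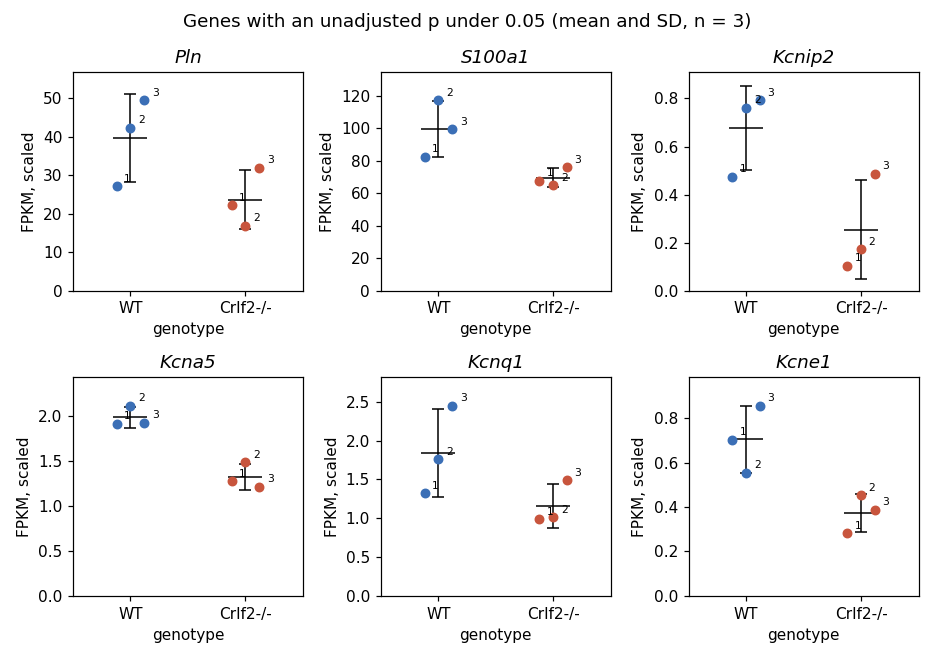
Scaled FPKM (vertical axes, from 0) of the 6 genes with an unadjusted p under 0.05 in each library (points, numbered by replicate) for WT (blue) and *Crlf2*-/- (red), with the mean and SD of 3 mice. *S100a1*, *Kcna5* and *Kcne1* do not overlap between genotypes, while *Crlf2*-/- replicate 3 reaches the WT range for *Pln*, *Kcnip2* and *Kcnq1*.

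The inward rectifiers set the resting potential (*Kcnj2*, Kir2.1) or carry the acetylcholine-activated current (*Kcnj3* and *Kcnj5*). *Kcnj2* (ENSMUSG00000041695, plus strand of chromosome 11, from 111066164 to 111076821) was at 2.87, 2.41 and 3.50 FPKM in WT and at 2.81, 2.63 and 2.52 FPKM in *Crlf2*-/- hearts. All 3 *Crlf2*-/- values fell inside the WT range, with a log2 fold change of -0.12 and a 95% interval from -0.48 to 0.24 (adjusted p = 0.991, limma). *Kcnj3* (-0.04) and *Kcnj5* (-0.29) did not pass either.

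The KATP channel opens when ATP falls and is built from a Kir6 pore (*Kcnj11* or *Kcnj8*) and a sulphonylurea receptor (*Abcc9*). Of the pores, *Kcnj8* is known from pericytes and smooth muscle, and *Kcnj11* from cardiomyocytes. *Kcnj8* (ENSMUSG00000030247, minus strand of chromosome 6, from 142564837 to 142571614) was at 6.19, 5.77 and 7.09 FPKM in WT and at 7.67, 7.11 and 7.48 FPKM in *Crlf2*-/- hearts. Each *Crlf2*-/- value was above each WT value, the closest being 7.11 and 7.09 FPKM, with a log2 fold change of 0.23 (standard error 0.11, unadjusted p = 0.0782, adjusted p = 0.825, limma). *Kcnj11* was at 0.792, 1.74 and 1.53 FPKM in WT and at 0.345, 0.862 and 1.21 FPKM in *Crlf2*-/- hearts, and the groups overlapped (log2 fold change -0.75, 95% interval -1.74 to 0.24, adjusted p = 0.864, limma). Its log2 fold change ran from -0.31 without *Crlf2*-/- replicate 1 to -1.09 without *Crlf2*-/- replicate 3. *Abcc9* had a log2 fold change of -0.08. Beside these values, the 9 markers of pericytes and smooth muscle went both ways, and their part was not tested. *Acta2*, smooth muscle actin, was at 516, 618 and 496 FPKM in WT and at 688, 725 and 649 FPKM in *Crlf2*-/- hearts, without overlap (log2 fold change 0.34, unadjusted p = 0.0347, limma). *Tagln* and *Cnn1* had log2 fold changes of 0.45 and 0.36, and the pericyte marker *Rgs5* of -0.27. The rest of the list lay at 0.23 for *Cspg4*, -0.0 for *Pdgfrb*, -0.02 for *Higd1b*, -0.09 for *Notch3* and -0.19 for *Myh11*.

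The pacemaker channels *Hcn2* and *Hcn4* were low, with means of 0.987 and 0.126 FPKM in WT. Their log2 fold changes were 0.02 and -0.07, and that of *Hcn2* was -0.15 without *Crlf2*-/- replicate 2. Of the connexins, *Gja1* (connexin 43, ENSMUSG00000050953, plus strand of chromosome 10, from 56377330 to 56402513), the gap junction protein of working myocardium, was at 10.5, 17.0 and 16.9 FPKM in WT and at 14.5, 12.1 and 14.9 FPKM in *Crlf2*-/- hearts. The *Crlf2*-/- values all lay between the lowest and the highest WT value (log2 fold change -0.07, 95% interval -0.51 to 0.38, adjusted p = 0.996, limma). *Gja5* (connexin 40, of atrium, conduction system and endothelium) had a log2 fold change of 0.14, which was -0.0031 without *Crlf2*-/- replicate 2, and its exons overlap those of *Gpr89* on the opposite strand (329 to 454 fragments, against 887 to 1481 for *Gja5*). *Gjc1* (connexin 45) had a log2 fold change of -0.10 with a 95% interval from -0.36 to 0.16.

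Ratios between partner genes were compared in each library, since a ratio within a library does not depend on the scaling between libraries. Of 15 planned ratios, 14 could be computed, and 2 of them did not overlap between genotypes. Among single genes, 6.17% of all genes tested lay lower without overlap and 5.56% higher. The share over ratios of other gene pairs was not counted, so this count is not read as a result about these genes. *Pln* per *Atp2a2* was 0.336, 0.342 and 0.337 in WT and 0.292, 0.237 and 0.296 in *Crlf2*-/- hearts. The ratio was nearly the same in the 3 WT hearts although *Atp2a2* itself ran from 80.9 to 147 FPKM among them. The difference was -0.31 on the log2 scale (p = 0.1 in a two-sided exact permutation test, which cannot go lower with 3 mice in each group, adjusted p = 0.56 over the 14 ratios). *Slc8a1* per *Atp2a2* was 0.158, 0.139 and 0.145 in WT and 0.230, 0.165 and 0.182 in *Crlf2*-/- hearts, a difference of 0.38 on the log2 scale with the same p and adjusted p in the exact permutation test.

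The other 12 ratios overlapped. The largest differences among them were *Kcnd3* per *Kcnd2* (2.18 on the log2 scale), *Kcnj8* per *Kcnj11* (1.08) and *Trdn* per *Casq2* (0.86), each with p = 0.2 in the exact permutation test and an adjusted p of 0.56. *Trdn* per *Casq2* was 0.64 without *Crlf2*-/- replicate 2. Within the slow delayed rectifier, *Kcne1* per *Kcnq1* differed by -0.27, and within the L-type channel *Cacnb2* per *Cacna1c* by -0.03, both inside the spread between mice.

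**Figure D5:**
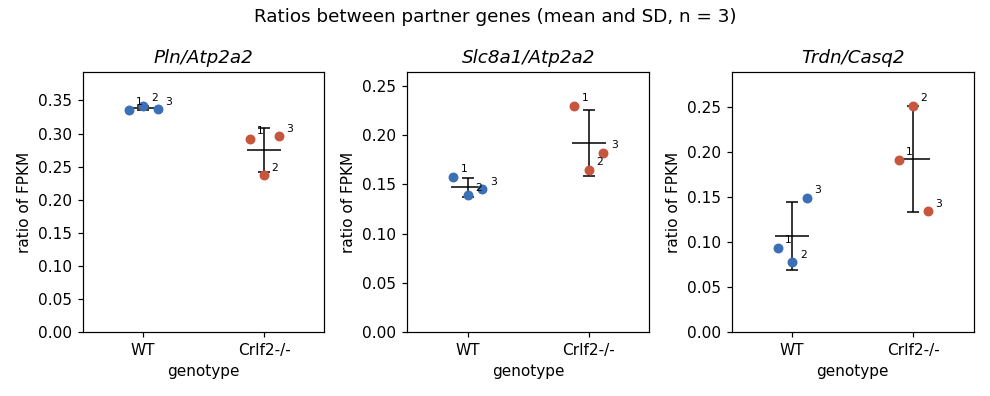
Ratio of FPKM between partner genes (vertical axes, from 0) in each library (points, numbered by replicate) for WT (blue) and *Crlf2*-/- (red), with the mean and SD of 3 mice. *Pln* per *Atp2a2* is nearly equal in the 3 WT hearts and lower in each *Crlf2*-/- heart, *Slc8a1* per *Atp2a2* is higher in each *Crlf2*-/- heart, and *Trdn* per *Casq2* overlaps.

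Because the cardiomyocyte markers were lower in *Crlf2*-/- libraries, the 34 genes were also compared per unit of these markers, by subtracting from each library the mean log2(FPKM + 0.1) of the 16 markers. This moved the median of all genes by 0.894 on the log2 scale, so values below are to be read against that shift. Subtracting the marker mean also adds its spread between libraries to genes that do not follow it, and limma pools spread over genes. Intervals on this scale are therefore similar for nearly all of the 34 genes. They and the p-values do not measure the spread of each gene alone. Then 1 of the 34 genes was lower in *Crlf2*-/- hearts, where 0.96% of all genes were, and that gene was *Kcnip2* (-0.36, 95% interval -1.51 to 0.79, adjusted p = 0.554, limma). The genotypes did not overlap for *Kcnip2* on this scale, with *Crlf2*-/- below WT, as for 0.103% of all genes. *Kcnip2* shared this with 4 of the 16 markers themselves (*Myl2* -0.45, *Myl3* -0.62, *Ckmt2* -0.17 and *Fabp3* -0.31), while 2 of the markers lay higher without overlap. The genes that lay nearest to the markers themselves, at a log2 difference of 0.11 to 0.15, were *Hrc*, *Kcne1*, *Kcnj11* and *Pln*. *Kcnq1* (0.29), *Kcna5* and *Kcnd2* (0.34 each), *Casq2* (0.37), *S100a1* (0.39) and *Atp2a2* (0.45) followed. The median of the 34 genes was 0.80, below the 0.894 of all genes.

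At the other end, 4 genes had an unadjusted p under 0.05 on this scale, all higher (*Kcnd3* 1.46, *Scn4b* 1.24, *Trdn* 1.22 and *Kcnj8* 1.12), where 15.4% of all genes did so and 0.11% were lower at that p. Without overlap, 10 of the 34 genes were higher, against 17.9% of all genes. None of the 34 passed the adjusted threshold, which 0.174% of all genes passed, and the smallest adjusted p was 0.209 (limma). These counts moved with single libraries, from 0 without WT replicate 2 to 18 without *Crlf2*-/- replicate 3. In that last fit 52.9% of the 34 genes and 89.5% of all genes tested passed the adjusted threshold. With *Myh6*, *Tnni3* and *Tnnt2* as the reference, a choice made after seeing that 1 library held skeletal muscle genes, 3 genes had an unadjusted p under 0.05.

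A wider list held 94 other genes of channels, pumps, SR and their regulation, of which 79 were tested. Of these, 48 were lower (60.8%, against 50.2% of all genes) and 31 higher in *Crlf2*-/- hearts, with a median log2 fold change of -0.04. The adjusted threshold was passed by 0 of them, against 0.0129% of all genes. At an unadjusted p under 0.05 (limma), 2 were lower and 2 were higher. That is 2.53% each way, against 3.25% and 3.3% of all genes, so the shares were not above those of all genes. *Scn2b*, another sodium channel beta subunit, was at 0.588, 0.343 and 0.335 FPKM in WT and at 0.146, 0.221 and 0.182 FPKM in *Crlf2*-/- hearts, without overlap (log2 fold change -0.86, adjusted p = 0.469, limma). *Atp2a3*, the SERCA3 pump known from endothelium and blood cells, was at 2.40, 3.01 and 2.77 FPKM in WT and at 2.05, 1.82 and 2.45 FPKM in *Crlf2*-/- hearts and had a log2 fold change of -0.36 (adjusted p = 0.76, limma) with overlap.

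The other 2 were CaM kinase genes and lay higher in each *Crlf2*-/- library than in each WT library. *Camk2b* was at 0.362, 0.330 and 0.307 FPKM in WT and at 0.472, 0.859 and 0.737 FPKM in *Crlf2*-/- hearts (log2 fold change 0.84, adjusted p = 0.461, limma). *Camk2g* was at 5.62, 6.07 and 6.23 FPKM in WT and at 7.09, 6.76 and 7.72 FPKM in *Crlf2*-/- hearts (log2 fold change 0.26, adjusted p = 0.703, limma). The cardiac isoform *Camk2d*, given above, stood at 0.09.

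The same list showed how far the skeletal muscle signal reached into channel genes. *Cacna1s*, the L-type channel of skeletal muscle, had 222 fragments in *Crlf2*-/- replicate 2 and at most 10 in any other library. *Kcnc4* had 110 fragments and *Cacng6* had 50 in that library and 0 in every other one. *Ryr1*, the ryanodine receptor of skeletal muscle, had 822 fragments there and at most 24 elsewhere. The 6 genes with an unadjusted p under 0.05 had no such peak in that library, and its part in their values was not tested beyond leaving it out, when *S100a1*, *Kcna5*, *Kcne1* and *Kcnip2* kept an unadjusted p under 0.05 and *Pln* (0.0954) and *Kcnq1* (0.116) did not.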

How the data were processed

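RNA from infarcted hearts was sequenced by the study with 1 library per mouse, 3 WT and 3 *Crlf2*-/-. Part of the extraction protocol in the labels names another tissue; the tissue label and the study's methods say heart. The authors aligned reads with HISAT2 2.0.5 (the submitters' processing notes list both mm10 and hg38) and used featureCounts for counting. The values they deposited are FPKM, per gene and library. FPKM times gene length gave whole fragments for 100% of nonzero values (tolerance 0.01). These fragments were used for depth, filters, voom, the scaling factors and the scaled FPKM of the main fit and the ratios. The table held 0 columns of other samples. Gene starts and ends matched GENCODE M21 (GRCm38) for 34 of the 35 genes.

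Libraries were scaled to each other with trimmed-mean-of-M factors. limma 3.58.1 in R 4.3.3 (lmFit, eBayes with trend and robust) was fitted to log2(FPKM + 0.1) of the 15520 genes that had 10 or more fragments in 3 or more libraries and 15 or more in total. Calling a gene required a p of 0.05 or less after Benjamini-Hochberg adjustment and a log2 fold change of 0.5 or more either way. Fold changes on this scale understate the change of low genes. Ratios were compared with exact permutation tests (scipy 1.17.1). Intervals from counts cover counting error only. Nothing but 1 library per mouse describes the replicates, so p-values measure the spread between these mice. Genes and lists were chosen with earlier results of these data known. Values per library are given for genes of the 34 and of the wider list with an unadjusted p under 0.05 (limma). They are also given for genes of the 34 whose groups do not overlap and for *Atp2a2*, *Pln*, *Ryr2*, *Cacna1c*, *Kcnj2* and *Gja1*. *Casq2*, *Hrc*, *Trdn*, *Scn4b*, *Sln*, *Kcnd2*, *Kcnj11* and the markers *Ckm*, *Acta2*, *Tagln*, *Cnn1* and *Rgs5* were added after their values were seen. So were the other named markers of pericytes and smooth muscle. The limma step was tested on simulated data. Alternatives were other scalings, pseudocounts, filters, voom, plain eBayes, a replicate block and leaving out each library; those of the comparison per unit of cardiomyocyte markers were added after seeing the data. Python 3.11.15, numpy 2.4.6, pandas 2.3.3 and matplotlib 3.10.9 were used.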

Additional observations from a re-analysis of the deposited data

How the results depend on the processing

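No gene of the 34 passed the adjusted threshold in any alternative of the test of FPKM. The count with an unadjusted p under 0.05 (6) ran from 4 to 10 when 1 library was left out, 10 of them without *Crlf2*-/- replicate 3, and was 5 to 7 under the other scalings, pseudocounts, filters and tests, apart from 4 per unit of the markers. The count of genes lower without overlap (3) ran from 3 to 13 with 1 library left out, 13 without WT replicate 1 and 9 without *Crlf2*-/- replicate 3, and was 1 per unit of the markers. By construction, groups with 1 library left out overlap less often. The share over all genes was not counted in those fits, so these counts are not read as a result about the 34 genes. The median log2 fold change (-0.09) was lowest, at -0.28, without WT replicate 1 and highest, at 0.041, without WT replicate 3, and it was 0.80 per unit of the markers, where all genes shift upward. Genes called among all tested (2) were 27 per unit of the markers, 6 with no filter, 1 with at least 10 fragments in every library, and 1 to 15 with 1 library left out, 15 without *Crlf2*-/- replicate 1 and 7 without WT replicate 3.

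With the replicate number as a block, 4 genes were called in all and 10 of the 34 had an unadjusted p under 0.05, as did 1108 of all 15520. Correlations of the deviations of same-numbered libraries were -0.016, 0.115 and 0.12. With 3 libraries per genotype these do not decide whether the numbers pair the mice, and no pairing is stated. Per unit of the markers, the count (4) was 15 with the replicate block, where 35.3% of the 34 and 60.5% of all genes passed the adjusted threshold, and 0 to 18 with 1 library left out, 18 without *Crlf2*-/- replicate 3, where 52.9% of the 34 and 89.5% of all genes passed it. Non-overlapping ratios (2) numbered 2 to 5 with 1 library left out, 4 without WT replicate 1 or *Crlf2*-/- replicate 2 and 5 without *Crlf2*-/- replicate 3; by construction, smaller groups overlap less often.

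Over the single genes and ratios, 608 values under an alternative kept their sign and their side of the threshold and 64 changed sign, none of them a call. Per unit of the markers the sign turned by construction of that scale for *Atp2a2* 0.453, *Pln* 0.147, *Ryr2* 0.622, *Casq2* 0.367, *Hrc* 0.109, *S100a1* 0.386, *Cacna1c* 0.735, *Cacnb2* 0.708, *Slc8a1* 0.83, *Kcnd2* 0.343, *Kcna5* 0.341, *Kcnq1* 0.292, *Kcne1* 0.133, *Kcnh2* 0.808, *Kcnj2* 0.773, *Kcnj3* 0.853, *Kcnj5* 0.608, *Kcnj11* 0.143, *Abcc9* 0.811, *Hcn4* 0.821, *Gja1* 0.829, *Gjc1* 0.797. *Scn4b* was -0.0036 with a pseudocount of 0.01 and -0.27 with voom. Leaving out 1 library turned the sign of the log2 fold change of these genes, over these ranges: *Jph2* -0.0623 to 0.346, *Cacna2d1* -0.00176 to 0.344, *Hcn2* -0.149 to 0.319, *Kcnh2* -0.304 to 0.11, *Gja1* -0.293 to 0.0499, *Ryr2* -0.69 to 0.0515, *Cacna1c* -0.449 to 0.117, *Cacnb2* -0.554 to 0.036, *Slc8a1* -0.257 to 0.151, *Kcnj2* -0.249 to 0.0124, *Kcnj3* -0.341 to 0.23, *Abcc9* -0.27 to 0.115, *Hcn4* -0.285 to 0.244, *Scn4b* -0.135 to 0.94, *Gja5* -0.00306 to 0.283, *Fkbp1b* -0.0242 to 0.0624. Ratios that turned (log2) were *Casq2* per *Ryr2* -0.524 to 0.0166, *Fkbp1b* per *Ryr2* -0.0438 to 0.76, *Cacnb2* per *Cacna1c* -0.251 to 0.113, *Kcnip2* per *Kcnd2* -1.23 to 0.339, *Kcnj5* per *Kcnj3* -0.703 to 0.192, *Hcn4* per *Hcn2* -0.383 to 0.371, *Gja5* per *Gja1* -0.0304 to 0.46. The cause was not tested. Depth limits *Kcnd2*, *Kcnd3*, *Scn4b*, *Hcn4*, *Kcnj3*, *Kcnip2*, *Kcne1* and *Hcn2*, each with fewer than 100 fragments in every library.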
